A study of Mus musculus with 16 samples.

Results

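Distal Thy1-only regions are stretches of the genome, away from gene starts, where each of the 4 libraries of Thy1+ spermatogonia had an ATAC-seq peak and none of the other 12 libraries of the study did. Peaks of all 16 libraries on chromosomes 1 to 19 that overlapped by 1 bp or more were merged into 358583 regions. A merged region was called distal where its peak with the highest fold enrichment lay in an intron or between genes in the authors' annotation, which left 270227. Of these, 1286 met the rule, or 0.476% of all distal regions, and they carried 1059 gene names in the authors' annotation. They were selected on the presence and absence of peaks, so their presence in Thy1 and absence elsewhere is a description and not a test.

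The cells came from testes of C57BL/6 mice, wild type or Scml2-KO, a knockout of the germline Polycomb-related gene Scml2. The 8 groups were Thy1+ spermatogonia (Thy1) and c-Kit+ spermatogonia (cKit) at postnatal day 7, with adult pachytene spermatocytes (PS) and adult round spermatids (RS), each in both genotypes with 2 libraries. The labels do not say whether animals were pooled or whether the 2 libraries came from separate animals, so the spread between them may be technical. Thy1 and cKit cells share their age, whereas stage and age cannot be told apart between spermatogonia and adult cells. In cell populations of this kind, a region open in few cells and one weakly open in all of them cannot be told apart.

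ATAC-seq uses the Tn5 transposase to cut accessible DNA, and open sites away from gene starts often act as enhancers, which set in which cell type a gene is used. The Thy1+ fraction holds undifferentiated spermatogonia, including the stem cells that maintain sperm production, and the c-Kit+ fraction holds cells that have begun to differentiate. Stem cells depend on GDNF and FGF2 from the surrounding somatic cells, and GDNF acts through the receptors GFRA1 and RET on their surface.

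RefSeq tables for GRCm38.p6, the assembly also named mm10, give 250 bases before each annotated gene start, and these windows were the sequence at hand for the distal regions. Of the 1286 regions, 13 (1.01%) reached into such a window, against 1.08% of all distal regions and 29.3% of the 413 distal regions open in all 16 libraries. Of the 13, 10 reached into the window of a RefSeq gene other than the one the authors named. The 5 of these with the highest fold enrichment are printed, with a Gdnf region because of that gene's role in the stem cell niche. They are stretches just before annotated starts and do not stand for the 1286 regions. The nearest start in the authors' annotation was a median of 63170.5 bp from those. Each name is the authors' gene, followed by the RefSeq gene whose start is touched, and each sequence runs 5′ to 3′ toward that start, limited to the bases inside the region. Capitals mark matches to the motifs given in the next paragraph, on either strand, and a sequence without capitals holds none of them.
9430014N10Rik (RefSeq gene Gm30339), chr15:93706303-93706467, plus strand: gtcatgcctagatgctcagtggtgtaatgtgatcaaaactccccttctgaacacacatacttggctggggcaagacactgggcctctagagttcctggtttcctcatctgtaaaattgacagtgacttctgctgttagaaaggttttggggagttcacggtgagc
Tox2 (Gm11454), chr2:163122365-163122614, plus strand: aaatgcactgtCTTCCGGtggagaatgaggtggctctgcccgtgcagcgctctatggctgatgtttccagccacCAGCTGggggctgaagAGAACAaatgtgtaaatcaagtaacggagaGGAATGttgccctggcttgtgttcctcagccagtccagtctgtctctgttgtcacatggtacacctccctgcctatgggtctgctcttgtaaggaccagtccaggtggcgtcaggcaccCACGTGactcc
Lrrc27 (Gm32315), chr7:139235091-139235207, minus strand: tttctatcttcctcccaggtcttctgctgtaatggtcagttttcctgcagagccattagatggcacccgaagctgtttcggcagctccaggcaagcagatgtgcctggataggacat
4930401C15Rik (Gm36908), chr10:25621564-25621793, minus strand: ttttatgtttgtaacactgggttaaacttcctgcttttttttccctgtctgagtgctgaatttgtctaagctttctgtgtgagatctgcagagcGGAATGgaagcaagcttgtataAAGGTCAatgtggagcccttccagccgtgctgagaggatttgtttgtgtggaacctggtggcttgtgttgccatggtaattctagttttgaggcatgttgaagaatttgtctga
Akt2 (Akt2), chr7:27596714-27596829, plus strand: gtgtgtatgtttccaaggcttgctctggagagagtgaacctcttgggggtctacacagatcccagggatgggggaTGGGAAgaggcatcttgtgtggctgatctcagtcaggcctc
Gdnf (Gm41263), chr15:7442223-7442300, plus strand: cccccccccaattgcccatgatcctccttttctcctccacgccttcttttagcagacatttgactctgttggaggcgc

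Motifs were searched in both orientations over the 13 overlaps, which were 70 to 250 bases long, and over all 31396 windows of 250 bases, so the shares are not on equal lengths. The steroid receptor motif AGAACA was found in 4 of 13, against 16.1% of all windows, and the RBPJ motif TGGGAA in 3, against 21.7%. GGAATG, bound by TEAD factors, and the RUNX motif TGTGGT were each found in 2, against 12.5% and 14.0%. Single overlaps held the AP-1 motif TGANTCA (6.77% of all windows), the GATA motif AGATAA (9.94%), the ETS motif CCGGAAG (7.01%), the SF-1 motif AAGGTCA (4.07%), the E-boxes CAGCTG (13.03%) and CACGTG (6.02%) and the NFI motif TTGGCA (12.2%). None of the 13 held the KLF and SP motif GGGCGGG (23.6%), the CRE TGACGT (6.52%), the CTCF core AGGGGGC (9.47%), the SOX motif ACAATGG (2.97%), the FOX motif TGTTTAC (3.21%) or the DMRT1 core ACATTGT (2.60%). Such short motifs can lie inside longer ones. In the sequences above, the Tox2 region held 5 of the motifs, the 4930401C15Rik region GGAATG and AAGGTCA, and the Akt2 region TGGGAA. The median GC content was 52.4% in the 13 overlaps and in all windows, and the median number of CpG was 2 in the overlaps, most of them shorter than a window, and 6 in all windows. Motif matches describe letters, not bound sites.

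The lists of peaks set how easily a region could be shared. The wild-type Thy1 lists had 135892 and 75038 peaks, the Scml2-KO Thy1 lists 110680 and 52113, and those of the other 12 libraries from 17813 to 164060. Replicate 1 had the longer list in all 8 groups. The number of reads behind each list is unknown here. With every list limited to its 17813 strongest peaks, 167 of 31882 distal regions (0.524%) were Thy1-only, in place of 1286 of 270227 (0.476%). The 167 overlapped 2 of the 1286. On those equal lists cKit had 102 stage-only distal regions (0.320%), PS 371 (1.16%) and RS 263 (0.825%). The lists as deposited gave 4 (0.00148% of distal regions), 137 (0.0507%) and 121 (0.0448%). The order of the stages therefore turned with list length, and most of the 1286 regions were Thy1 peaks below the strongest 17813 of at least 1 list. Leaving out the shortest Thy1 list, Scml2-KO replicate 2, gave 4993 regions. Leaving out replicate 2 of wild-type Thy1 gave 2229, and leaving out replicate 1 of cKit Scml2-KO gave 2142.

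The strongest region lay between genes near Tasp1, which encodes a protease that cuts the MLL histone methyltransferases (chr2:139792265-139793126). Fold enrichment, the coverage at a peak's summit plus 1 over a constant background of the list, is the authors' value on the scale of its own list. The background plus 1 was 1.66 and 1.83 in the wild-type lists and 1.96 and 1.26 in the Scml2-KO lists, and coverage was not scaled to depth. Which library is highest or lowest at a region is therefore given as deposited and is no comparison of openness between libraries. It was 21.1 and 12.5 in the wild-type replicates and 22.4 and 5.56 in the Scml2-KO replicates, with a median of 16.8. The coverage behind these values was 34, 22, 43 and 6. As deposited, both replicate 1 values were above both replicate 2 values, and the values of wild type and Scml2-KO overlapped. A region in an intron of Rnf150, a ring finger protein gene (chr8:82939770-82940614), had 16.9 and 10.4 in wild type and 15.8 and 6.36 in Scml2-KO. Near Rbpj, the DNA-binding partner of the Notch receptors (chr5:53371677-53372316), the values were 13.9, 10.9, 16.8 and 3.97 in the same order. Near Btbd3, a BTB domain gene (chr2:138040234-138041143), they were 22.3, 7.09, 17.3 and 5.56. In all of these the Scml2-KO replicate 2 value was the lowest.

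Other strong regions lay at genes of many kinds. Near Dpt, which encodes the matrix protein dermatopontin (chr1:164770580-164771032), fold enrichment was 12.1 and 10.9 in wild type and 12.7 and 4.77 in Scml2-KO. In an intron of Foxk1, a forkhead transcription factor gene (chr5:142424610-142425412), it was 16.3, 9.27, 12.7 and 6.36 in the same order. In an intron of Dlgap1, a scaffold protein of synapses (chr17:70629787-70630426), it was 12.1, 11.997, 9.68 and 7.15. The most even of the 15 strongest regions lay near Elovl5, a fatty acid elongase gene (chr9:77838665-77838968), with 10.3, 9.82, 10.2 and 8.74. Its summits fell within 14 bp of each other, in a region of 304 bp. An intron of Ppa2, the mitochondrial pyrophosphatase (chr3:133333338-133334100), had 13.3, 4.91, 16.3 and 7.15. Here wild-type replicate 2 was lowest, the single such case among the 15. The rest of the 15 lay near 1700010K23Rik, Usp25 and 1700064M15Rik, near Armc1, and in introns of Mir143hg, the host transcript of the smooth muscle microRNAs miR-143 and miR-145, and Stk39, a kinase of ion transport, with medians of 9.93 to 11.1.

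**Figure D1:**
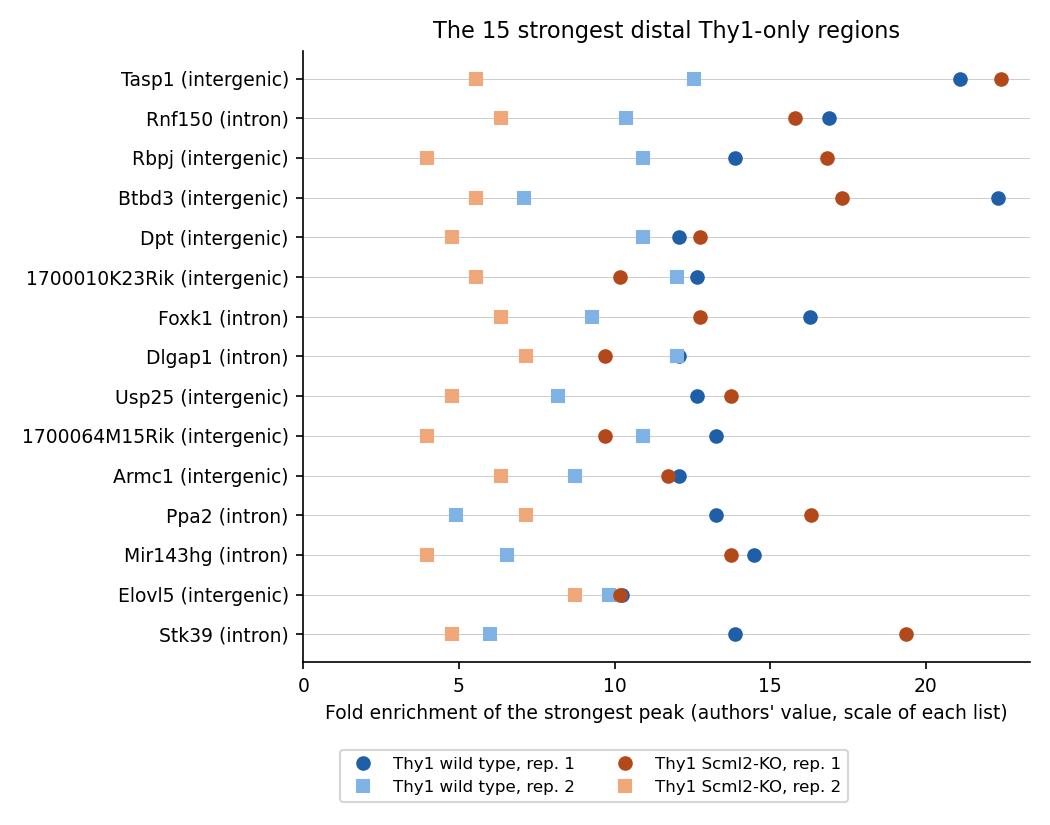
Fold enrichment (authors' value, horizontal axis, no unit) of the strongest peak in each of the 15 distal Thy1-only regions with the highest median, named by the authors' gene. Each point is 1 of the 4 Thy1 libraries; the Scml2-KO replicate 2 squares, from 3.97 to 8.74, are the lowest in every row except Ppa2.

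At the other end, a region near Nr4a2, an orphan nuclear receptor gene (chr2:56333990-56334398), had 3.62 and 3.27 in wild type and 3.06 and 3.18 in Scml2-KO. Regions near Abca8b (chr11:109902691-109902858) and Gm5607 (chr8:12162989-12163540) had the lowest medians, 3.16 each. The lowest values of any of the 1286 regions were 3.01 and 3.27 in the wild-type lists and 3.06 and 3.18 in the Scml2-KO lists, so these 3 regions were at or near the lower end in most of the 4 lists.

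Most of the 1286 regions were weak. Their median fold enrichment over the 4 libraries had a median of 5.24 and ran from 3.16 to 16.8. By library the median was 6.03 and 4.91 in wild type and 5.60 and 3.97 in Scml2-KO. All intronic and intergenic peaks of the same lists had medians of 4.82, 4.91, 5.09 and 4.77. The regions thus stood above the typical distal peak in both replicate 1 lists, level with it in wild-type replicate 2 and below it in Scml2-KO replicate 2. Median coverage at the summit was 9, 8, 10 and 4. In the weakest of the 4 libraries it was 5 or less for 1113 regions (86.5%). Scml2-KO replicate 2 held the lowest value for 789 regions (61.4%), wild-type replicate 2 for 260, Scml2-KO replicate 1 for 143 and wild-type replicate 1 for 94. A fold enrichment of 5 or more in all 4 libraries was reached by 73 regions (5.68%).

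**Figure D2:**
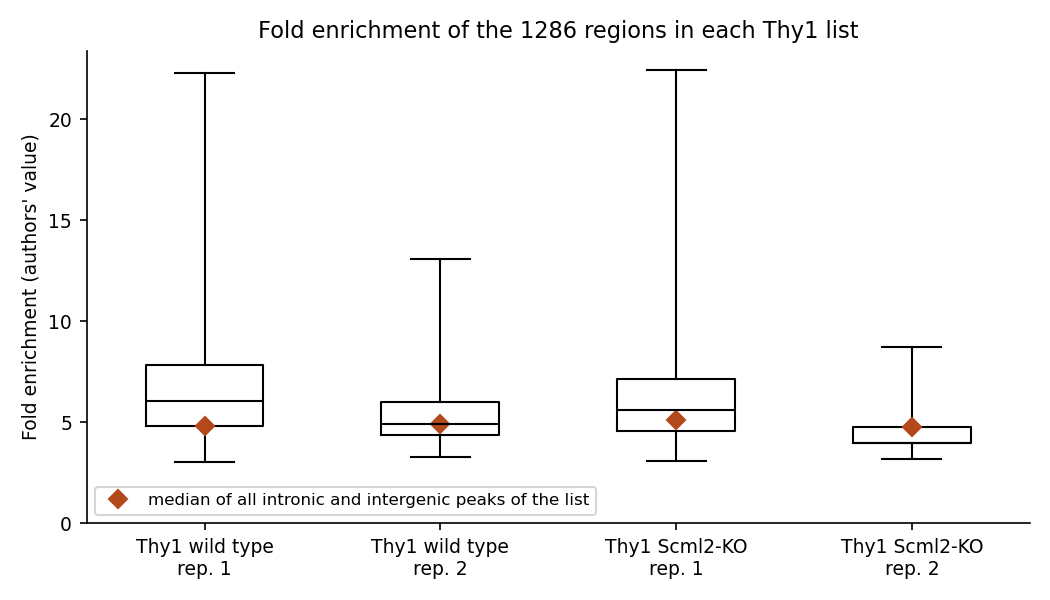
Fold enrichment (authors' value, vertical axis, no unit) of the 1286 regions in each Thy1 list; boxes are quartiles with the median, and whiskers reach the lowest and highest region. Diamonds are medians of all intronic and intergenic peaks of the list, which the regions' median exceeded in both replicate 1 lists and fell short of in Scml2-KO replicate 2 (3.97 against 4.77).

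The regions were 168 to 1867 bp long with a median of 469.5 bp. The median was 216 bp for all distal regions, which need a peak in only 1 library. It was 484 bp for the 4 cKit-only distal regions, 817 bp for the 137 PS-only and 560 bp for the 121 RS-only ones. The median was 799 bp for the 888 distal regions open in all 8 spermatogonial and 0 adult libraries, and 1348 bp for the 413 open in all 16. Exactly 4 peaks, 1 for each library, made up 1067 of them. The summits of the 4 strongest peaks spread over a median of 154 bp, over at most 50 bp in 98 regions and over more than 300 bp in 164. In 1059 regions (82.3%) those 4 peaks shared at least 1 base, and in 227 no base was common to all of them, so that the strongest peaks there are neighbours joined by the merging. Among these 227 were the regions named below for Zbtb16, Fgf18, Yap1 and Dkk2.

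Introns held 632 of the regions and intergenic sequence 654. The nearest start site was a median of 63170.5 bp away, against 52731 bp for all distal regions, 50485 bp for those open in all spermatogonia and no adult cells, and 35166 bp for those open in all 16 libraries. Within 10 kb of a start were 91 regions (7.08%), against 12.2% of all distal regions. More than 100 kb away were 456 (35.5%), against 31.0%. Regions at promoters were seldom Thy1-only. Of merged regions with a peak in all 4 Thy1 libraries, 7.74% of those in introns and 7.95% of those between genes had no peak elsewhere, against 0.330% of 12440 at promoters.

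Every chromosome from 1 to 19 held some, from 25 on chromosome 19 to 114 on chromosome 2. Per 1000 distal regions this was 3.39 on chromosome 19 and 5.93 on chromosome 4, the lowest and the highest. The median gap to the next one was 442425 bp, and 129 regions (10.0%) had another within 50 kb. In 5 places 3 of them followed each other at gaps of at most 50 kb. These were near Col5a1, a fibrillar collagen chain (chr2:27798961-27858893), near Cited2, a transcription cofactor gene (chr10:17542606-17563246), and near Gm9199, Ldlrad3 and G2e3.

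Of the 1059 gene names, 878 were given to 1 region, 147 to 2 and 26 to 3. Ptprd, a receptor tyrosine phosphatase, had the most, with 6 spread from chr4:75526472-75526914 to chr4:77153844-77154133 and medians of 4.66 to 5.80. The protocadherin gene Pcdh9 had 5, all in introns, with medians of 3.95 to 8.30. The deubiquitinase gene Usp24 also had 5. Genes with 4 were Dlgap1, N6amt1, Cited2, G2e3 and Gm5088. The regions named for a gene can be far from it: the Ptprd region farthest from the start of Ptprd was 2685311 bp away. Gene length moved with the naming. Genes named for the regions had a median length of 80892.5 bp (1002 of 1063 matched to RefSeq), against 18627 bp for all genes. Among genes with an intronic distal region of any kind the median was 32855 bp, and among those with an intronic Thy1-only region it was 138972 bp. The part of gene length in the lists that follow was not tested.

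GDNF and FGF signalling genes held 9 of the regions, at 8 of 25 genes (32.0%), against 5.03% of all 21113 genes. They made up 14.8% of the 61 distal regions of these genes with a peak in all 4 Thy1 libraries, against 7.85% for all genes. Gdnf itself, the niche factor of the stem cells, had 2 intergenic ones. The first (chr15:7649929-7650271), 160816 bp from the start of Gdnf, had fold enrichments of 5.43 and 6.00 in wild type and 4.59 and 4.77 in Scml2-KO. The second (chr15:7442223-7442589), whose sequence is printed above, had 4.22 and 4.36 in wild type and 4.59 and 4.77 in Scml2-KO and lay 368595 bp away. All 8 values fell between 4.22 and 6.00. The medians were 5.10 and 4.47, the first close to the median of all the regions (5.24) and the second below their lower quartile (4.68). An intron of Fgf2, the other niche factor (chr3:37402132-37402570), had 7.84, 4.91, 5.60 and 3.97, and a region near Fgf18 had a median of 4.47.

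On the receptor side, an intron of Fgfr1 (chr8:25535739-25536250) had 6.63 and 6.00 in wild type and 11.2 and 3.97 in Scml2-KO. An intron of Fgfr2 (chr7:130174338-130174892) had 11.5, 4.91, 6.62 and 3.97 in the same order. The highest library was Scml2-KO replicate 1 for Fgfr1 and wild-type replicate 1 for Fgfr2. Spry2 and Spry4, inhibitors of receptor tyrosine kinase signalling, and Mycn, a growth regulator downstream, had medians of 4.10, 5.14 and 4.18. The receptor genes Gfra1 and Ret and the GDNF target Etv5 had no such region. Promoters of the 8 genes were open widely: each had a peak within 1 kb of a start site in 4 of 4 Thy1 libraries and in at least 3 of 4 cKit libraries.

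Extracellular matrix and adhesion genes held 19 regions at 13 of 41 genes (31.7%), or 12.5% of their 152 distal regions open in all 4 Thy1 libraries. Their median gene length was 84615 bp. The strongest lay near Thbs2, which encodes thrombospondin 2 (chr17:14647709-14648544), with 8.44 and 6.00 in wild type and 7.64 and 7.15 in Scml2-KO. Col5a1 had 3 regions with medians of 5.02, 6.27 and 7.33, and an intron of Col5a2, its partner chain (chr1:45410854-45411303), had 7.84, 9.27, 6.11 and 4.77. Integrin genes were Itga1, Itga4, Itga8 with 3 regions and Itgb8 with 2. The remaining genes were Lamb1, Col4a2, Col12a1, Cdh13, Vcan and Adamts1. Thbs2 (2 of 4 cKit and 0 of 8 adult libraries), Lamb1 (3 and 0), Cdh13 (2 and 0) and Col5a2 (4 and 0) had no promoter peak in adult cells. The rest of the 13 had a promoter peak in at least 1 adult library, Itga8 in 4 of 4 PS and 4 of 4 RS. Of all genes, 77.6% had a promoter peak in 1 or more adult libraries, and of the named genes 81.7%.

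Genes of TGF-beta and BMP signalling held 8 regions at 5 of 35 genes, 8.70% of their distal regions open in all 4 Thy1 libraries. Tgfbr3, the co-receptor betaglycan, had an intergenic one (chr5:107025677-107026353) with 11.5 and 5.45 in wild type and 12.2 and 4.77 in Scml2-KO. An intron of Tgfbr3 (chr5:107110856-107111449) held another, with a median of 4.28. The ligand gene Bmp2 had 3, with medians of 5.00, 6.40 and 6.86, all at least 202839 bp from its start. Tgfb2, Acvr2a and Smad3, a ligand, a receptor and a signal transducer, had the others. The Wnt list had 3 of 33 genes, the transcription factors Tcf7l2 and Lef1 and the secreted inhibitor Dkk2. The Notch list had 2 of 20, Rbpj and the receptor Notch2, and the Hippo list had the coactivators Yap1 and Wwtr1 of 23. By genes these shares were 9.09%, 10.0% and 8.70%, above the 5.03% of all genes. By distal regions open in all 4 Thy1 libraries they were 4.48%, 4.88% and 5.26%, under the 7.85% of all genes, so the 2 measures lay on opposite sides of the background.

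Of the stem and progenitor genes, 2 of 30 had a region, or 6.67% against 5.03% of all genes. These were 6.25% of the list's 32 distal regions open in all 4 Thy1 libraries, against 7.85% for all genes. An intron of Zbtb16, the transcription factor PLZF that maintains stem cells (chr9:48786864-48787562), had 4.22 and 4.36 in wild type and 6.11 and 4.77 in Scml2-KO. The strongest peaks of the 4 libraries shared no base there, and their summits spread over 407 bp. An intron of Shisa6, a marker of stem spermatogonia (chr11:66387580-66387952), had 6.03, 4.91, 7.13 and 3.97 in the same order. In the differentiating list, the single gene of 12 (8.33%) was Kitl, the ligand of c-Kit, with 2 regions and medians of 5.17 and 5.26. These were 18.2% of that list's 11 distal regions open in all 4 Thy1 libraries. Kitl is also in the Sertoli list. No region was named for a gene of the meiotic prophase (24 measured), Polycomb (30) or housekeeping (16) lists. The spermatid list had 2 of 25, Actl7a and Odf1, with regions 963721 and 33686 bp from their starts.

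Somatic markers were also among the named genes. The Sertoli list had 5 regions at 3 of 22 genes (13.6%), Wt1, Gdnf and Kitl. These were 16.1% of its 31 distal regions open in all 4 Thy1 libraries. The background was 5.03% of all genes and 7.85% of such regions. The Gdnf and Kitl regions are those already counted in the GDNF and FGF list and the differentiating list, so Wt1 alone was new here. The Wt1 region lay in an intron (chr2:105146586-105147317), with 7.24 and 5.45 in wild type and 5.60 and 3.18 in Scml2-KO. The peritubular and smooth muscle list had Lmod1 and Col3a1 of 24 genes (8.33%, and 6.90% of its regions open in all 4 Thy1 libraries). The endothelial list had Kdr and Emcn of 12 (16.7%, and 10.5% of such regions), and the immune and Leydig lists had none of 11 and 12. In the Thy1 libraries, promoter peaks were found at 81.8% to 86.4% of the Sertoli list, 75.0% to 95.8% of the peritubular list, 50.0% to 75.0% of the endothelial list, 36.4% to 45.5% of the immune list and 50.0% to 75.0% of the Leydig list. In cKit the ranges were 45.5% to 86.4%, 37.5% to 79.2%, 16.7% to 66.7%, 0% to 36.4% and 25.0% to 75.0%. The shares of all genes were 65.5% to 74.2% in Thy1 and 50.8% to 70.7% in cKit. In Thy1 the Sertoli and peritubular ranges thus lay above those of all genes, the endothelial and Leydig ranges reached below them, and the immune range lay below. Markers with a promoter peak in 4 of 4 Thy1 libraries included Sox9, Gata4, Fshr, Clu and Rhox8 (Sertoli), Acta2 and Myh11 (smooth muscle), Cdh5, Kdr and Tek (endothelium) and Nr5a1 (Leydig). Il33 and Tnfsf18 of the immune list had peaks in 4 of 4 Thy1 and in 0 of the other 12 libraries. Those with no promoter peak in any Thy1 library were Gata1 and Amhr2 (Sertoli), Mylk (smooth muscle), Pecam1 and Tie1 (endothelium), Ptprc, Cx3cr1, Itgam and Cd3e (immune) and Cyp11a1, Cyp17a1 and Hsd3b1 (Leydig). The part of somatic cells in the 1286 regions was not tested.

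The label of the fraction was checked at its own markers. The promoter of Thy1, the surface protein used for the sort, had a peak in 4 of 4 Thy1, 0 of 4 cKit, 1 of 4 PS and 1 of 4 RS libraries. Gfra1 had 4, 2, 3 and 2 in the same order. Thy1 is also a gene of the peritubular and smooth muscle list. The stem and progenitor list stood at 66.7% to 80.0% in Thy1 and 43.3% to 76.7% in cKit, ranges that overlap. They also overlap the shares of all genes, 65.5% to 74.2% in Thy1 and 50.8% to 70.7% in cKit. Pax7, Nanos3, T, Lin28a and Pou5f1 of that list had no promoter peak in any Thy1 library. Kit had one in all 16 libraries, so its promoter does not separate the fractions.

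Distal regions with a peak in all 4 Thy1 libraries numbered 16388, and they were ordered by how many of the other 12 libraries also had a peak. The 1286 with none were followed by 1580 with 1, 3911 with 2, 3698 with 3 and 2014 with 4. Median fold enrichment in Thy1 was 5.24 with none, 5.77 with 1, 6.74 with 2, 7.76 with 3 and 8.82 with 4. It stayed between 8.13 and 9.41 from 5 to 10 other libraries, and was 10.9 with 11 and 17.5 with all 12. The Thy1-only regions were the weakest step of this order, and also the shortest, though each further step joined peaks of more libraries.

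**Figure D3:**
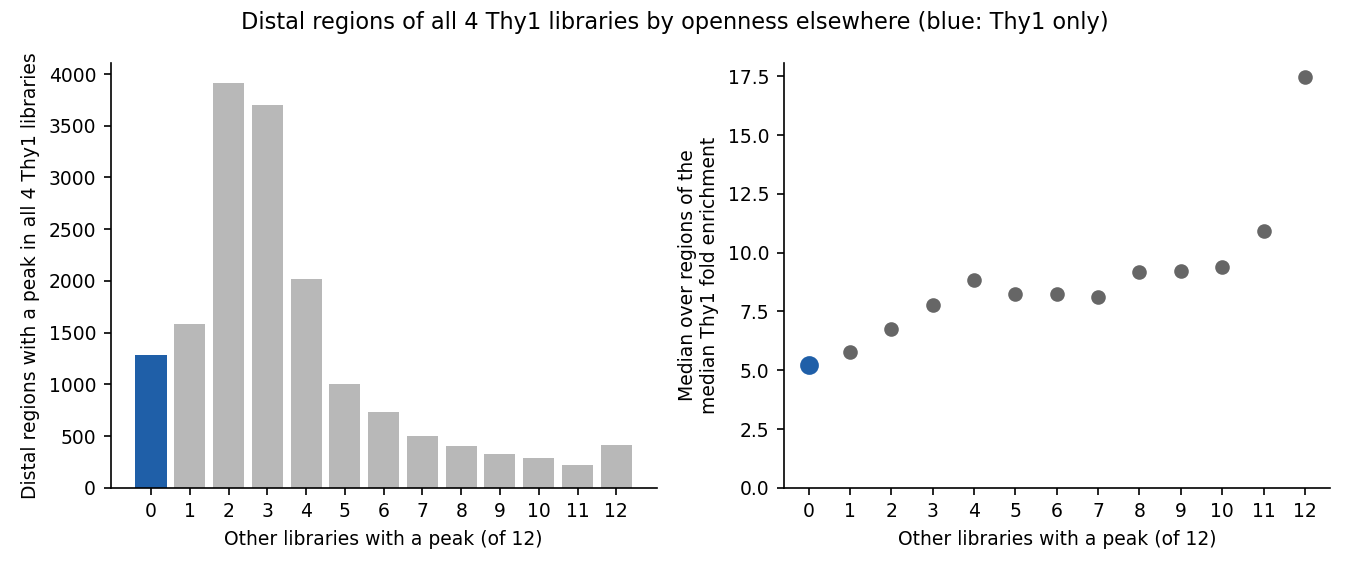
Left, number of distal regions with a peak in all 4 Thy1 libraries (vertical axis) by how many of the other 12 libraries had a peak (horizontal axis). Right, median over those regions of the median Thy1 fold enrichment (no unit), from 5.24 with 0 other libraries (blue, the 1286 regions) to 17.5 with all 12.

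The regions just outside the rule show what divides the 2 sides. Of the 1580 with 1 other library, that library was cKit Scml2-KO replicate 1 for 862 (54.6%) and cKit wild type replicate 1 for 512 (32.4%). RS Scml2-KO replicate 1, the longest list of all, accounted for 74 and cKit wild type replicate 2 for 69. The strongest of them was an intron of Setbp1, with 20.5 and 11.997 in the wild-type and 19.9 and 6.36 in the Scml2-KO Thy1 libraries and a peak at 4.75 in cKit wild type replicate 1. An intron of Gipc2 (chr3:152145167-152145619) had 21.1, 13.1, 16.3 and 3.97 in Thy1 and 7.46 in cKit Scml2-KO replicate 1. On the other side, 4847 distal regions had peaks in 3 Thy1 libraries and none of the other 12. The missing library was Scml2-KO replicate 2 for 3701 (76.4%) and wild-type replicate 2 for 944. An intronic region named for 7530420F21Rik (chr1:150089056-150089599) had 19.3, 7.09 and 21.4 and no peak in Scml2-KO replicate 2. The Setbp1 and Gipc2 medians over the 4 Thy1 libraries, 15.9 and 14.7, were thus above those of all 1286 regions except the first.

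**Figure D4:**
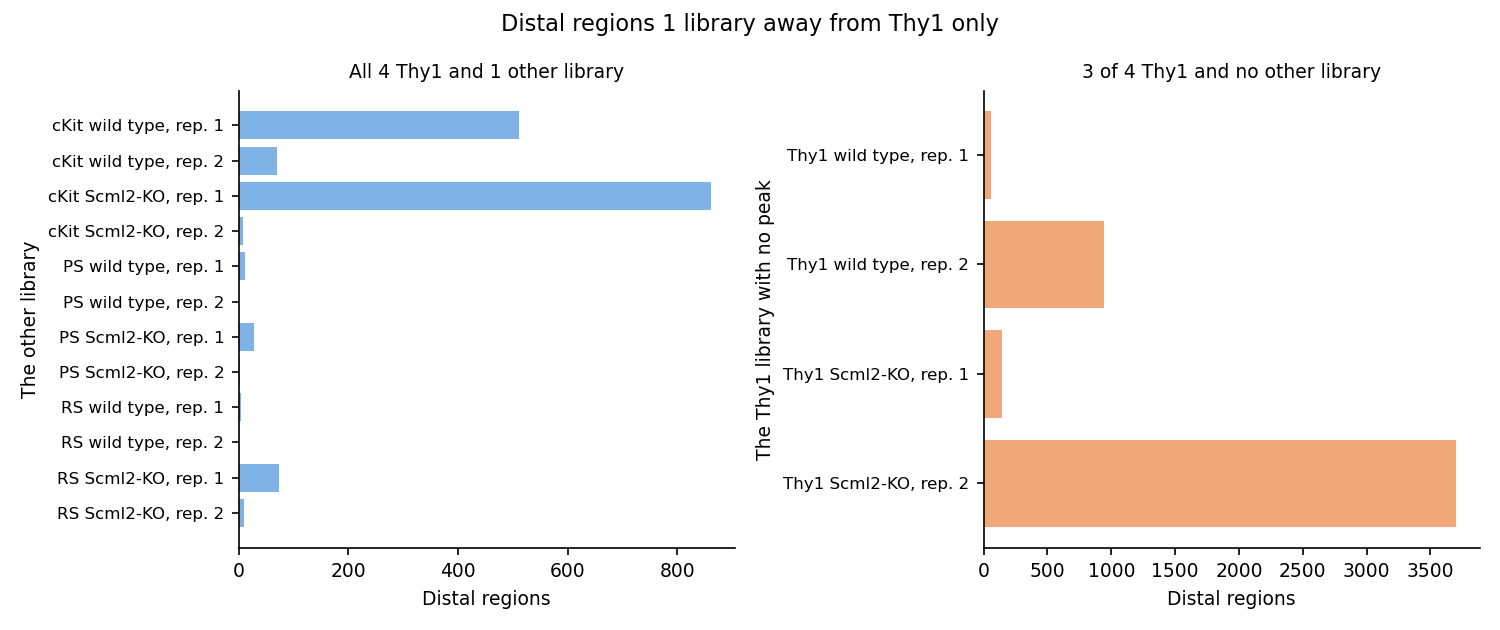
Numbers of distal regions (horizontal axes) that missed the rule by 1 library. Left, regions in all 4 Thy1 libraries and 1 other, by that library, with cKit Scml2-KO replicate 1 the highest at 862; right, regions in 3 Thy1 libraries and no other, by the Thy1 library without a peak, with Scml2-KO replicate 2 the highest at 3701.

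Regions restricted to 2 Thy1 libraries were most numerous for the 2 longest lists. Both replicate 1 libraries and no others shared 9421 distal regions, and both replicate 2 libraries, with the shorter lists, 76. Both wild-type libraries and no others shared 1671, and both Scml2-KO libraries 215. A comparison of 2 with 2 libraries allows no two-sided p under 0.333, so the genotypes were not tested within Thy1.

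The distance to peaks of cKit was measured from each region. The nearest cKit peak was a median of 6979 bp away, within 1 kb for 192 regions (14.9%) and within 100 bp for 11 (0.855%). Another peak of the same library lay within 5 kb of 58.6% of the regions in Thy1 wild type replicate 1 and of 29.5% in Thy1 Scml2-KO replicate 2, the longest and the shortest Thy1 lists.

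Promoters of the named genes were then followed across stages, since the distal rule did not use them. Of 1063 genes, 80.9% ± 2.96 (SD, n = 4) had a promoter peak in Thy1, 72.5% ± 10.9 in cKit, 63.8% ± 3.49 in PS and 63.7% ± 5.31 in RS. The same shares over all 21113 genes were 70.2% ± 3.72, 62.6% ± 9.33, 60.9% ± 6.22 and 59.9% ± 6.46 (SD, n = 4 each). The named genes were higher in every library, by 10.0 to 12.1 points in Thy1, 7.37 to 11.1 in cKit, 0.393 to 5.67 in PS and 0.985 to 5.87 in RS. The ranges in Thy1 and cKit overlapped, although the regions themselves had no peak in cKit, and every adult value lay below every spermatogonial one. These shares were not tested, since Thy1 peaks chose the genes. Promoters open in 0 of 16 libraries were fewer among the named genes (9.22% against 15.1%), and those open in all 16 were 40.1% against 39.0%.

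**Figure D5:**
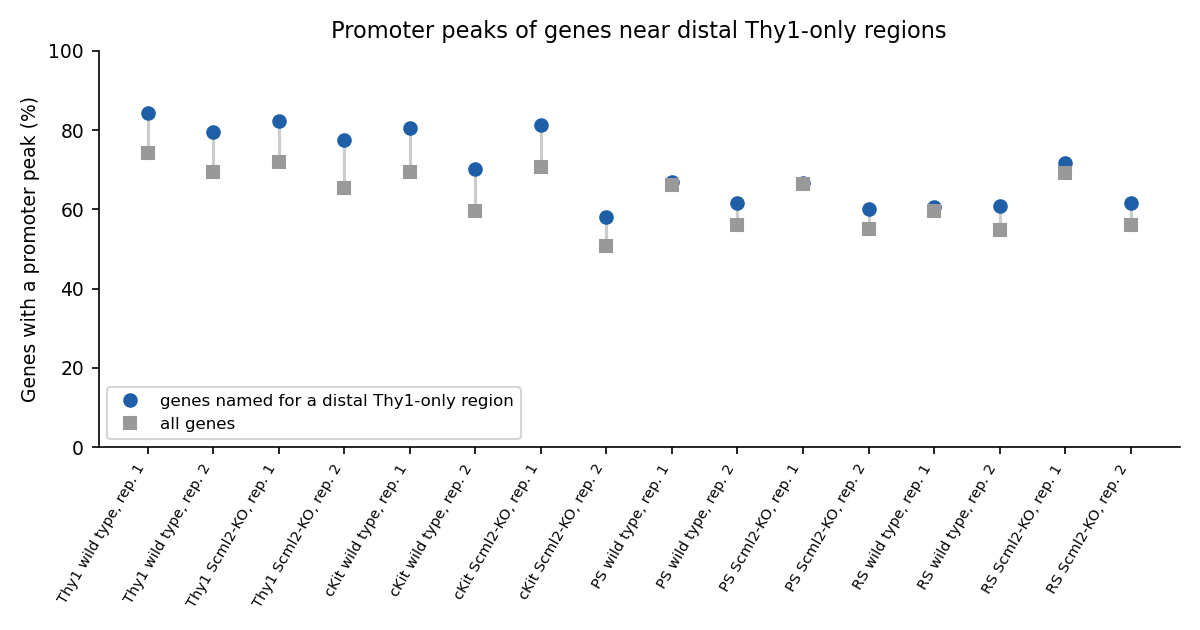
Share of genes with a peak within 1 kb of a start site (vertical axis, %) in each of the 16 libraries, for the 1063 genes named for distal Thy1-only regions (circles) and all 21113 genes (squares). The circles lie above the squares in every library, by 7.37 to 12.1 points in the 8 spermatogonial libraries and by 0.393 to 5.87 in the 8 adult ones.

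Few of the named genes had a promoter with the pattern of their distal region. Promoters open in all 4 Thy1 libraries and in none of the other 12 numbered 2 of 1063, Crb1, a cell polarity gene, and Mir3110, against 21 of all genes (0.0995%). The Mir3110 region itself reached within 1 kb of that start.

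Whether the named genes' promoters differed between cKit and adult cells was tested, a contrast that leaves the Thy1 libraries out. By a two-sided exact Fisher test on 4 cKit and 8 adult libraries, over genes open in 3 to 9 of the 12, 0 of 320 named genes were called, as were 0 of 5142 genes in all (0%). At an unadjusted p of 0.05 or less, 54 of the 320 (16.9%) stood out, against 14.97% of all genes tested, with 45 (14.1%) higher and 9 (2.81%) lower in cKit. Over all genes tested, more were also higher than lower in cKit, 516 (10.04%) against 254 (4.94%). The lowest adjusted p was 0.0527, shared by all completely separated genes, so they pass or miss together. Among them, Col5a2, Calcrl, the receptor of the calcitonin gene-related peptide, Glrx, a glutaredoxin, Flrt2, a guidance protein of the membrane, and the protocadherin gene Pcdh7 had promoter peaks in 4 of 4 cKit and 0 of 8 adult libraries. Actl7a, an actin-like protein of the sperm head, had the reverse, 0 of 4 and 8 of 8. With a start window of 500 bp, 12 of 322 named genes (3.73%) were called, 10 of them (3.11%) higher in cKit. Over all genes it was 200 of 4927 (4.06%), 121 of them (2.46%) higher. With a fold enrichment of 5 or more it was 23 of 369 named genes (6.23%) with 22 (5.96%) higher, against 261 of 5326 in all (4.9%) with 214 (4.02%) higher. With lists of equal length it was 35 of 335 named genes (10.4%) with 22 (6.57%) higher, against 552 of 4895 in all (11.3%) with 309 (6.31%) higher.

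Genotype was tested over all stages by permuting the labels within each stage. By this two-sided exact test 0 of 36 named genes and 0 of 803 genes in all (0%) were called, with a lowest adjusted p of 1. At an unadjusted p of 0.05 or less there were 3 of the 36 named genes (8.33%), Gm4975, 1700009N14Rik and 4922502N22Rik, all lower in Scml2-KO. In all there were 13 of the 803 genes (1.62%), 8 of them (0.996%) lower in Scml2-KO. Gm4975 had promoter peaks in 3 of 8 Scml2-KO and 8 of 8 wild-type libraries (exact p = 0.0278).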

How the data were processed

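ATAC-seq peak lists of 16 libraries were used, 1 for each library and none of pooled replicates. Per the submitters' processing notes, the tools were Bowtie 1.1.1 and MACS2 2.1.0.20140616 on mm10, with caller options not given in the sources used here. The pileup, a coverage signal at the summit, was deposited by the authors without scaling to library size. The fold enrichment is a ratio deposited by the authors. The authors also deposited, for each peak, a −log10 p-value, a −log10 q-value and the length in bp. The gene and region of each peak are the authors', by a rule not given in the sources used here. Samples took their group and replicate from the labels, and the replicate numbers in the deposited names follow another order.

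The 1431525 deposited lines, each a summit, were joined into 1111092 peaks, and peaks of chromosomes 1 to 19 were merged at an overlap of 1 bp. Absence of a peak says that the caller's threshold was not reached. The members and the gene lists were chosen with earlier results of these data known. Named regions were the 15 with the highest and the 3 with the lowest median fold enrichment, those of the 10 genes with most regions, and those of 17 gene lists. Start sites came from the authors' transcripts, and 623 genes named only together with another gene were left out of promoter counts. A promoter peak overlapped the 1 kb before or after a start. Promoters were tested by exact tests with Benjamini-Hochberg adjustment over all genes tested at a threshold of 0.05, which take libraries as independent, and these tests were tried on simulated data. Alternatives were stricter peaks, lists of equal length, other merging and start windows, chromosome X, a replicate block and each library left out. Python 3.11.15, pandas 2.3.3 and scipy 1.17.1 were used.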

Additional observations from a re-analysis of the deposited data

How the results depend on the processing

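The number of distal Thy1-only regions followed the peaks allowed into the lists. It was 446 with a −log10 q of 5 or more, 348 with a fold enrichment of 5 or more and 167 with lists of equal length, in place of 1286, and these overlapped 69, 73 and 2 of the 1286. The gene names numbered 413, 332 and 160 in place of 1059, and the median fold enrichment was 7.87, 7.65 and 12.5 in place of 5.24. The equal lists held 31882 distal regions in all, of which the 167 were 0.524%, against 0.476% as deposited. Merging at 100 bp (1280), an overlap of 50 bp (1262), distal annotation of every peak (1279) and chromosome X (1321) moved the count little. Leaving out each library in turn gave 1286 to 4993 regions, 1059 to 2980 genes and a median of 4.91 to 5.45. Among these, leaving out replicate 2 of Thy1 Scml2-KO gave 4993 regions, replicate 2 of wild-type Thy1 2229 and replicate 1 of cKit Scml2-KO 2142, since fewer libraries then had to have, or to lack, a peak.

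Between cKit and adult cells, promoters called by Fisher's exact test numbered 12 of 322 named and 200 of 4927 genes in all with a start window of 500 bp, 23 of 369 and 261 of 5326 with a fold enrichment of 5 or more, and 35 of 335 and 552 of 4895 with lists of equal length, in place of 0 and 0. The lowest adjusted p was 0.0498, 0.0412 and 0.0179 there against 0.0527. The count stayed at 0 without each library in turn, and genotype calls were 0 under every alternative run. For cKit against adult cells, leaving out a Thy1 library changes nothing, since the test does not use it. Leaving out a cKit or adult library raises the smallest p the test can reach, so these runs say little about stability. With the replicate number as a block, 0 of 320 named genes and 0 of 5142 genes were called between cKit and adult cells (lowest adjusted p = 0.116, exact test), and 0 of 12 genes between genotypes (0.1875), none of them a named gene. Over 28 pairs of groups, the correlation of same-numbered libraries' deviations across genes ran from -0.00136 to 0.424, was positive in 27 and over 0.1 in 18. Same-numbered libraries thus shared structure in most pairs of groups, and replicate 1 had the longer list in each group. The labels tie the numbers to no shared animal or day, and they were not taken as pairs because not every correlation was over 0.1. Depth is unknown, so a region without a peak may be open below the caller's threshold.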

Other observations

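With every list limited to its 17813 strongest peaks, the 167 distal regions left to Thy1 alone were mostly others than the 1286 and were stronger in Thy1. The first lay near Tle1, a corepressor gene of the Groucho family (chr4:72013600-72015002), with fold enrichments of 21.7 and 15.8 in wild type and 21.9 and 10.3 in Scml2-KO. In an intron of Prkci, an atypical protein kinase C of cell polarity (chr3:31022555-31023470), the values were 23.5, 9.27, 27.0 and 11.9 in the same order. In an intron of Efr3a (chr15:65795597-65796284) they were 16.9, 15.8, 17.3 and 12.7, and near Thrb, a thyroid hormone receptor gene (chr14:16734973-16736099), 15.7, 16.4, 21.4 and 7.95. On the deposited lists, 165 of the 167 lay in merged regions with a peak of another stage, 164 of them with a cKit peak and 32 with an adult one, and the median number of other libraries was 3. Usp24 and Dlgap1, which had 5 and 4 of the 1286 regions, were named for strong regions here too, with medians of 13.6 and 14.0.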
